A study of Mus musculus with 14 samples.

Results

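Calb1 encodes calbindin-D28k, a cytosolic EF-hand protein that binds and buffers calcium, and its transcript separated 14 single retinal ganglion cells (RGCs) into 5 Calb1-positive and 9 Calb1-negative cells. The cells were chosen by their measured Calb1 signal: a cell was Calb1-positive where 1 probe set of the gene reached at least 8 times the median signal of its own array. By this rule cells 2, 4, 7, 9 and 12 of the 14 were positive, so the Calb1 values themselves are a description and were not tested. All 14 cells were RGCs of adult mice from a cross of Parvalbumin-cre animals (129P2/OlaHsd) with Tomato reporter animals (Ai9, C57BL/6 and 129 SV) by the sample labels, and none was treated. The study's methods instead place the Cre line on a segregating C57BL/6;129P2OlaHsd and the Ai9 line on a congenic C57BL/6J background. Each cell was picked by its red fluorescence after papain dissociation of the retina, and its amplified cDNA was measured on 1 Affymetrix Mouse430_2 array. Cre in these mice follows the parvalbumin gene Pvalb, so the red label marks cells that express or have expressed Pvalb, and brightness of the reporter varied between cells. No source named the animal of any cell, so p-values here take the 14 cells as exchangeable and measure the spread between cells only.

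In the mouse retina calbindin-D28k is best known from horizontal cells, and it also occurs in groups of amacrine cells and RGCs. RGCs are the output neurons of the eye and fall into many subtypes that differ in dendritic form, in light response and in the transcription factors, adhesion molecules and peptides they express. Direction-selective RGCs, which fire to motion along a preferred axis, are marked among others by the peptide precursor Cartpt. Values below are MAS5 signals in arbitrary units on a linear scale, and a gene is called detected in a cell where its probe set reached 8 times the array median.

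The Calb1-positive cells also had more detected probe sets than the negative cells, with the exception of negative cell 6. Counts were 9162, 11427, 10483, 9307 and 11910 in cells 2, 4, 7, 9 and 12, of 45037 probe sets. In the 9 Calb1-negative cells they ran from 4191 to 9496, with a median of 6237. Only cell 6 of the negative cells, with 9496, lay within the range of the positive cells. The means were 10458 ± 1230 (SD, n = 5) and 6474 ± 1653 (SD, n = 9), a difference of 3984 probe sets (exact permutation test over all 2002 assignments, two-sided, p = 0.0015). The sets were themselves chosen by detection of a probe set, with the same cut that gave these counts. A cell with many detected probe sets is more likely to have any given probe set detected, so the assignments were not exchangeable. That p-value cannot separate a tie between Calb1 and depth from the way the cells were chosen. A measure of how much of each transcript was copied, the ratio of the 3′ to the 5′ control probe set of Gapdh, ran from 1.09 to 1.47 in the positive and from 1.16 to 2.61 in the negative cells (exact permutation test of the log2 ratio, two-sided, p = 0.112). Because Calb1 and the depth of detection nearly coincide, each gene is given below by its signals and its detections and then by a difference fitted with the number of detected probe sets as a covariate.

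**Figure D1:**
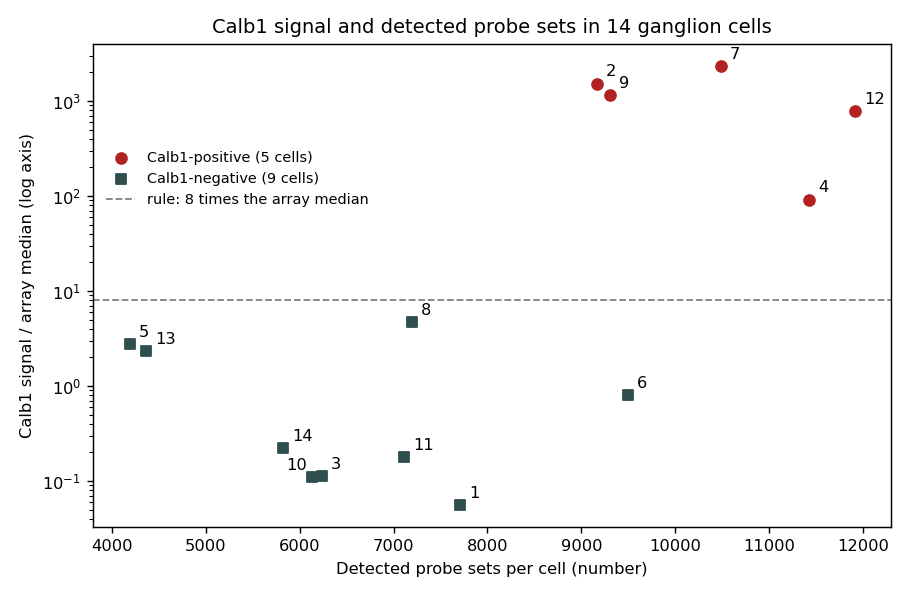
Calb1 signal over the array median (log axis) against the number of detected probe sets, 1 point per cell with its number; the dashed line is the rule at 8 times the median. The 5 positive cells lie between 91.5 and 2342 times the median at 9162 to 11910 detected probe sets, and cell 6 is the single negative cell within that depth range.

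Calb1 was not a borderline signal in any positive cell. Its signals were 22748, 952, 36529, 24366 and 12627 in cells 2, 4, 7, 9 and 12, and in the negative cells they ran from 1.72 to 67.3 (median 4.03). The lowest positive cell, cell 4, stood at 91.5 times its array median, and the highest negative cell, cell 8, at 4.69 times. A rule of 16 or 64 times the median gave the same 5 cells, and a rule of 4 times would have added cell 8 as the 6th. Cell 4 was set apart within the positive cells by a Calb1 signal more than 10 times below that of the next one.

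The other probe sets of the gene did not follow it. Calb1 has 4 probe sets. Of the 3 that the rule did not use, the first was detected in cell 7 alone with a signal of 391.6, the next in cell 7 alone with 2670, and the last in cell 13 alone with 123. The sets of cells therefore rest on a single probe set, and in cell 7 on 3 of the 4.

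Fam163a was high in the same 5 cells, a coincidence already known from these cells when the comparison was set up. Its signals were 2650.1, 1194, 10995, 3294 and 8656 in cells 2, 4, 7, 9 and 12. In the negative cells it ran from 3.55 to 139 (median 34.5), and the groups did not overlap. On the log2(signal + 32) scale the means were 11.97 ± 1.29 against 5.96 ± 0.72 (SD, n = 5 and n = 9). The depth-adjusted difference was 5.88 (SE 1.96, adjusted p = 0.981 by limma), the largest among the genes whose cell sets did not overlap. It had 1 probe set on the array.

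Counted over all 18192 named genes other than Calb1, 13 were detected in all 5 Calb1-positive and in no Calb1-negative cell, which is 0.0715% of the genes. They were Fam163a, Cdc27, Gsdme, Adpgk, Mdm4, Cttnbp2nl, Krit1, Nuak1, Oxsr1, Zmym5, Ube2f, Asb8 and Nrp2. No gene (0%) had the reverse pattern of detection in all 9 negative and no positive cell. The nearest was Rgs10, a regulator of G protein signalling picked out here after its values were seen. Its signals were 18.8, 19.9, 24.6, 20.4 and 24.8 in the positive cells and ran from 10.4 to 51448 (median 1465) in the negative cells, 7 of which had it detected. Leaving out a cell can add genes to such a list and cannot remove one, and their number was 29 without cell 2, 26 without cell 6 and 20 to 22 without cell 1, 4, 7, 8 or 9. Detection in every positive cell was common: 2797 genes were detected in all 5, of which 480 were detected in all 9 negative cells too and 2498 in cell 6.

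**Figure D2:**
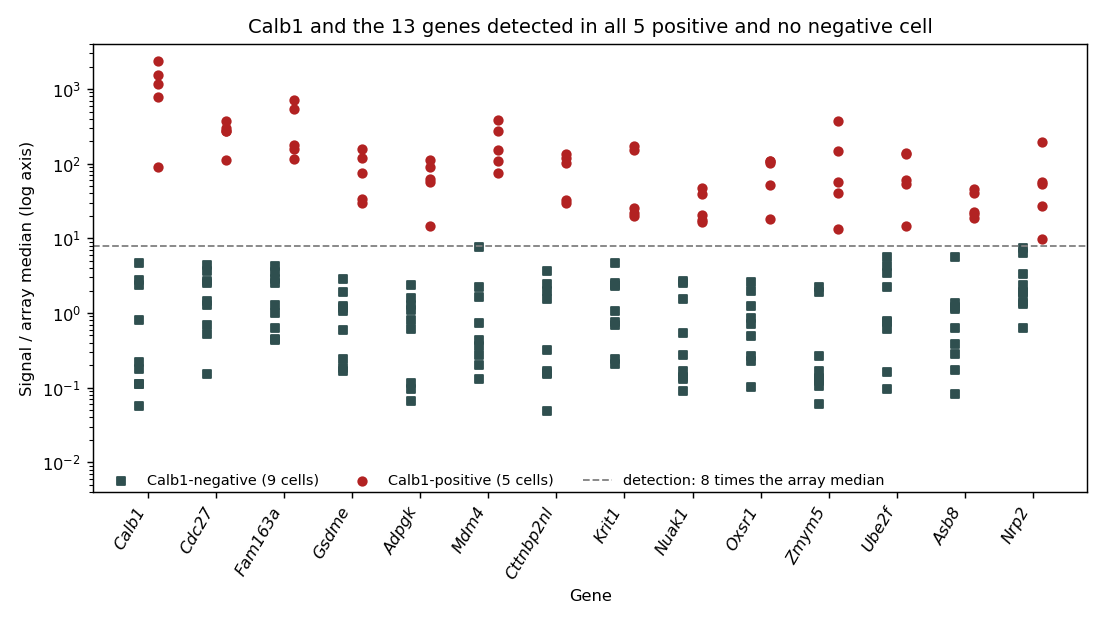
Signal over array median (log axis) of Calb1 and of the 13 genes detected in all 5 Calb1-positive and no Calb1-negative cell, 1 point per cell, ordered by the gap between the sets on the log2(signal + 32) scale; the dashed line marks detection at 8 times the median. For Cdc27, Fam163a and Gsdme the sets lie far apart, and for Mdm4 and Nrp2 the highest negative cell lies just under the line.

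Cdc27, a subunit of the anaphase-promoting complex, had the widest gap between the sets. Its signals were 4136, 3838, 4339.6, 2381 and 4932 in cells 2, 4, 7, 9 and 12 and ran from 2.28 to 239 (median 29.5) in the negative cells. All 5 positive cells were within 2.1-fold of each other, and the highest negative cell was cell 1. Its depth-adjusted difference was 4.87 (SE 1.92, adjusted p = 1.0 by limma). Gsdme, which encodes the pore-forming protein gasdermin E, had 2339, 1257, 466, 699 and 1210.2 in the positive cells and ran from 2.26 to 45.8 (median 16.4) in the negative cells. The difference for Gsdme was 4.47 (SE 1.59, adjusted p = 1.0 by limma).

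Adpgk, an ADP-dependent glucokinase, had 1342, 1156, 891, 1300.3 and 241 in cells 2, 4, 7, 9 and 12 and ran from 0.529 to 40.2 (median 8.27) in the negative cells. Cell 12 was the low one among the positive cells, and the groups did not overlap. Its depth-adjusted difference was 4.86 (SE 1.54, adjusted p = 0.940 by limma). Krit1, the product of which binds the small GTPase Rap1, had 2590.3, 1571, 312, 540.2 and 359 in the positive cells and ran from 3.12 to 87.0 (median 18.5) in the negative cells. Cttnbp2nl, a relative of the cortactin-binding protein Cttnbp2, had 1532, 1242, 464, 2818 and 526 and ran from 0.746 to 109 (median 5.72). Both were low in cells 7 and 12 compared with cell 2, and both stayed above every negative cell.

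Kinases were among these genes. Oxsr1, a kinase of the WNK pathway that acts on cation-chloride cotransporters, had 268, 547, 1671, 2145 and 1766 in the positive cells and ran from 1.44 to 143 (median 12.5) in the negative cells. Nuak1, a kinase related to AMPK that acts in axon branching, had 306, 495, 257, 826 and 285 and ran from 1.05 to 137 (median 4.47). Their depth-adjusted differences were 3.81 (SE 1.64) and 2.44 (SE 1.43), both with an adjusted p of 1.0 by limma. The zinc finger gene Zmym5 varied most within the positive cells, from 200.2 in cell 2 to 3921 in cell 4.

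For the remaining genes the highest negative signal was that of cell 1. The array median of cell 1 was 55.0, the highest of the 14, which put its detection threshold at a signal of 440 (83.2 to 168 in the positive cells). Mdm4, an inhibitor of p53, had 4039, 3997, 2361, 1569 and 1742 in the positive cells and 422 in cell 1. Ube2f, a conjugating enzyme of the NEDD8 pathway, had 314 in cell 1 and 309.7 in cell 9. Asb8 had 309 in cell 1, above the 235 of cell 4. Nrp2, a co-receptor for semaphorins, had 412 in cell 1 and 145 in cell 2, and its depth-adjusted difference of 1.53 became -0.10 without cell 6. By signal the sets therefore overlapped for Ube2f, Asb8 and Nrp2. Of the 13 genes, 10 had further probe sets, and in 4 of them (Adpgk, Asb8, Cttnbp2nl and Ube2f) another probe set was detected in at least 3 positive and no negative cell. In 4 (Gsdme, Krit1, Zmym5 and again Ube2f) another probe set was detected in 1 or 2 negative cells. The 3 other probe sets of Cdc27 were detected in 0, 1 and 1 positive cells and in no negative cell. Of the 25 further probe sets, 8 were detected in no cell.

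The start regions of the 3 genes with the widest gaps are shown, since these genes were detected together with Calb1 in the same 5 cells. Each window runs from 250 bases before to 50 bases after the annotated start (RefSeq, GRCm38.p6, all 3 on the minus strand, printed 5′ to 3′ along the gene), at chr11:104550571-104550870 for Cdc27, chr1:156204977-156205276 for Fam163a and chr6:50261720-50262019 for Gsdme. Capitals mark matches on either strand to common promoter motifs. The letters searched were CCAAT, which the factor NF-Y binds, then GGGCGG, the GC box bound by Sp1, then CANNTG, the E-box of basic helix-loop-helix factors, and last TATAAA, bound by TBP.
Fam163a: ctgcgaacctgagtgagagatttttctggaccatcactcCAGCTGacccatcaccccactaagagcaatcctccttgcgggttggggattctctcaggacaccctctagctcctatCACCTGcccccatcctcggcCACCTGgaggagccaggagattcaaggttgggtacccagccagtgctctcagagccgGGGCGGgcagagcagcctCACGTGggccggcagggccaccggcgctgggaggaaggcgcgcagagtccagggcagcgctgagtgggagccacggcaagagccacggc
Cdc27: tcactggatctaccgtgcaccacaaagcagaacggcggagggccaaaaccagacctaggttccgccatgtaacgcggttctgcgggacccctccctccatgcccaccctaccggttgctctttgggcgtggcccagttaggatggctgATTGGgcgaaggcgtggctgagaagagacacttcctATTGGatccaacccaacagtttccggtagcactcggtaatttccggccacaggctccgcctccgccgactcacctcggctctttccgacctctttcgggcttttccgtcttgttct
Gsdme: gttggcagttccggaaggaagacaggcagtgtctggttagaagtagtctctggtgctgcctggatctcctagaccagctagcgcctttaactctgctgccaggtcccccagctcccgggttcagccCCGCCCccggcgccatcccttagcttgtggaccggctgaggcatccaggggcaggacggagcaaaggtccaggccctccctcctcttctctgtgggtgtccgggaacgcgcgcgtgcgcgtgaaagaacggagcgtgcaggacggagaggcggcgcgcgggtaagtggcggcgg
The Fam163a window held 4 E-box matches and 1 GC box match, the Cdc27 window 2 CCAAT matches, and the Gsdme window 1 GC box match. No matches to different motifs overlapped in these windows. All 13 genes had a window, 19 windows in all, and of these 11 held a GC box match, 8 an E-box match, 6 a CCAAT match and 0 a match to the TBP motif. Among all 32851 windows of the table the shares were 35.7%, 72.3%, 37.4% and 13.6% in the same order. Calb1 itself has no window in the table.

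Across the 6882 genes other than Calb1 that were detected in at least 4 cells, no gene passed an adjusted p of 0.05 in either direction (0% higher and 0% lower, limma with the number of detected probe sets as a covariate, lowest adjusted p = 0.940). At an unadjusted p under 0.05, 96 genes (1.39%) were higher and 221 (3.21%) lower in Calb1-positive cells. That split depended on the scaling and on how depth was counted: with arrays scaled to their medians it was 144 higher and 141 lower, and with detection at 4 times the median 327 higher and 127 lower. Before the adjustment 5139 of the 6882 genes (74.7%) had a higher mean in the positive cells, with a median difference of 0.94 on the log2(signal + 32) scale. After it the median was -0.28, and scaling to array medians moved this to 0.13 and counting detection at 4 times the median to 0.51. The median SE of a gene's depth-adjusted difference was 2.30, and cell 6 had the highest leverage in the fit (0.438). Genes and lists below are given beside a median of -0.28, which turns with these settings, and none of the genes passed the test.

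**Figure D3:**
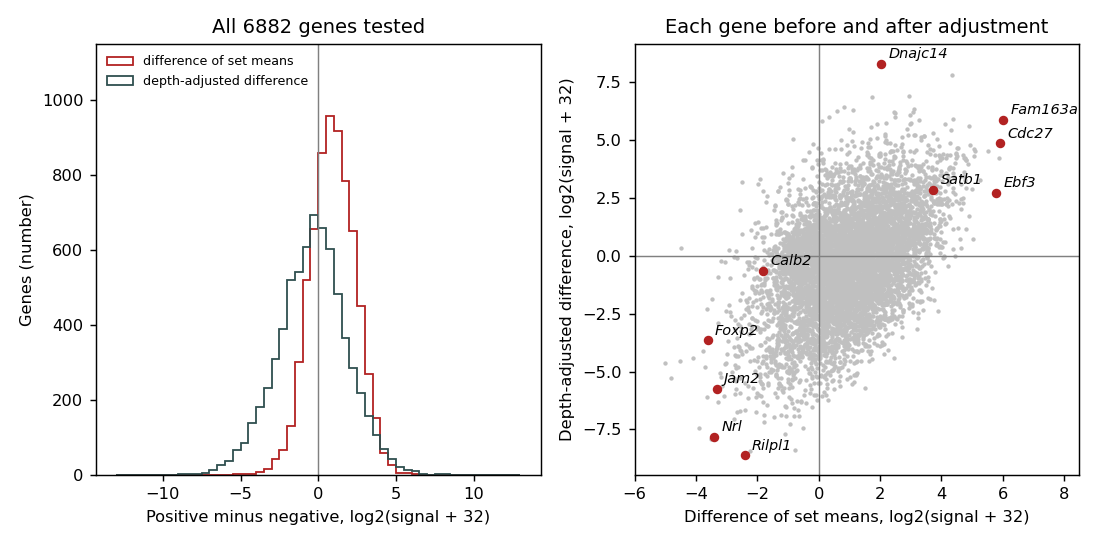
Left, numbers of genes by their difference between the sets (Calb1-positive minus Calb1-negative) on the log2(signal + 32) scale, as set means and after adjustment for detected probe sets. Right, the 2 differences of each of the 6882 genes, with named genes in red; the median falls from 0.94 to -0.28 with the adjustment, and Fam163a and Cdc27 remain far to the upper right.

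By signal alone, 27 genes (0.392% of those tested) had every positive cell above every negative cell, and 3 (0.0436%) had every positive cell below. Genes detected in the positive cells alone passed the filter of at least 4 cells only through that set. With detection in at least 7 cells, 11 higher and 3 lower genes were left. Without cell 1 the number of higher genes was 67, without cells 2, 4, 6, 8, 9, 10 or 12, each left out alone, 42 to 58, and the number of lower genes was 12 without cell 9 and 5 to 7 without cell 1, 4, 6 or 8. Beside those already described, the higher genes with the largest differences were Tmem14c, Shroom2 and Mindy2. Tmem14c, a mitochondrial inner membrane protein of haem synthesis, had 2620.0, 919, 4318, 3158 and 2239 in cells 2, 4, 7, 9 and 12 and ran from 14.7 to 197 (median 62.4) in the negative cells. Shroom2, which binds actin, had 1495, 1855, 1101, 4254 and 2435 in the positive cells and its highest negative signal was 349 in cell 1. Mindy2, a deubiquitinase, had 4169.5, 2391, 1618, 2943 and 1585 in the positive cells and its highest negative signal was 427 in cell 10. The differences of these 3 genes were 4.34, 4.37 and 4.33, with SEs of 2.01, 1.94 and 1.95.

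The 3 lower genes were abundant in every cell, and their sets lay close together. Rbfox1, a neuronal splicing factor, had 9960.3, 8056, 7904, 9865 and 4448 in cells 2, 4, 7, 9 and 12 and ran from 11689 to 28083 (median 18148) in the negative cells. Sod1, a superoxide dismutase, had 17945 to 31843 in the positive and 36392 to 79599 in the negative cells. Gnb1, a G protein beta subunit found in rods and in many other cells, had 17884 to 27844 against 30010.2 to 135722, while a further probe set of it was detected in 5 positive and 2 negative cells. Of the other probe sets of Rbfox1, 1 was detected in 5 positive and 5 negative cells and another in 5 positive and 8 negative cells. The differences between the set means of Rbfox1, Sod1 and Gnb1 were -1.27, -0.96 and -1.15 on the log2(signal + 32) scale. Their depth-adjusted differences were -0.37, -0.63 and -0.13, and with arrays scaled to their medians none of the 3 had sets that did not overlap and those of Rbfox1 and Gnb1 turned to 0.22 and 0.47.

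The genes with the smallest unadjusted p among the higher ones were Dnajc14, Bloc1s5, Rab3ip, Csdc2, Ngrn, Adpgk, Nabp2, Zfp335, Rnf113a1 and Serpinb9, all with an adjusted p of 0.940. Rab3ip, an exchange factor for the small GTPase Rab8, had 7005, 5230.1, 2988, 824 and 498 in cells 2, 4, 7, 9 and 12. It was detected in 1 negative cell, cell 5, where its signal of 27533 was the highest of all. Its difference was 7.82 (SE 2.36). Bloc1s5, a subunit of a complex that sorts cargo to lysosome-related organelles, had 1534, 7.19, 4571, 6246 and 212 in the positive cells and no negative signal above 27.1. Serpinb9, an inhibitor of granzyme B, had 2145, 995, 337, 699 and 9.15 and no negative signal above 34.0. Both were detected in 4 of 5 positive and 0 of 9 negative cells. They, like Adpgk, passed the filter of at least 4 cells only through the set where they were high, so their place here is no independent support.

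For others of these 10 genes the signals overlapped widely and the difference grew with the depth adjustment. Dnajc14, a co-chaperone, was detected in 4 of 5 positive and 2 of 9 negative cells. Its highest signal of 21246 was in cell 5, the negative cell with the fewest detected probe sets (4191). Csdc2, a cold-shock domain protein, was detected in all 14 cells with 8295 to 30417 in the positive and 1849 to 89337 in the negative cells, and its lowest signal was in cell 6. Its difference of 3.04 became -0.28 without the depth covariate, and those of Dnajc14 and Nabp2 went from 8.31 and 6.33 to 2.04 and 1.11. Nabp2 had 2344 to 7161 in the positive cells and 21.8 in cell 6.

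Among the lower genes, the smallest unadjusted p belonged to Rilpl1, Acadm, Grik1, Cdc25b, Rnf40, Clic1, Tmed9, Sra1, Nrl and Slc16a3, again all with an adjusted p of 0.940. Each of the 10 was detected in cell 6, the deep negative cell. Grik1, a kainate-type glutamate receptor subunit, had 11.9, 1.90, 1.81, 33.2 and 235 in cells 2, 4, 7, 9 and 12 and ran from 0.571 to 6583 (median 58.7) in the negative cells, with the highest value in cell 6. Its difference was -6.72, and -5.61 without cell 6. Rilpl1 had 10.6, 28.3, 11.1, 30.5 and 2006 in the positive cells and ran from 0.532 to 5883 (median 2161) in the negative cells, so it was high in cell 12 and in 5 negative cells. Its difference was -8.61, and -9.89 without cell 6. Cdc25b, a cell cycle phosphatase, and Clic1, a chloride intracellular channel protein, were each detected in 0 of 5 positive and 4 of 9 negative cells.

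Nrl, the transcription factor that specifies rods, also stood in this group. Its signals were 56.9, 5.32, 14.3, 1.44 and 14.5 in the positive cells, none of them detected, and ran from 1.22 to 32552 (median 59.1) in the negative cells, with detection in cells 1, 3, 6 and 8. Cells 3 and 6 had the most rod markers detected. The positive cells had 2 to 4 of 15 rod markers detected and the negative cells 2 to 11, and the summed rod signal was 18267 to 46358 in the positive against 35671 to 181976 in the negative cells. Gnat1, rod transducin alpha, was detected in cell 4 among the positive cells (signal 207) and in 6 negative cells with up to 40909. Without cells 3 and 6 Nrl was no longer tested, since too few cells had it detected, and the part of rod transcripts in other differences was not tested.

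No other tested gene on a list of calcium buffers and sensors had sets of cells that did not overlap. Such genes were few over all genes tested too (0.392% higher and 0.0436% lower), so 0 of 19 is near that share. Of 29 measured calcium buffers and sensors other than Calb1, 19 were tested, 0 passed an adjusted p of 0.05, and 0 and 1 had an unadjusted p under 0.05 in the higher and lower direction. Their median depth-adjusted difference was -0.63, beside -0.28 over all genes. Of all genes tested, 1.39% and 3.21% had an unadjusted p under 0.05 in the higher and lower direction. The other classical buffers were present in both sets. Calb2, which encodes calretinin, had 34020.5, 20470.5, 3535, 54163 and 12349 in cells 2, 4, 7, 9 and 12 and ran from 32958 to 117688 (median 58950.3) in the negative cells. Cells 7 and 12 were lowest, cells 2 and 9 lay within the negative range, and the difference was -0.63 (SE 0.70, adjusted p = 1.0 by limma). Pvalb, the gene that drives the reporter, had 17752, 11593, 12762, 10033 and 13105 in the positive cells and ran from 7.27 to 65384 (median 15898) in the negative cells. The positive cells were within 1.8-fold of each other, while the negative cells included the single cell without Pvalb detection, cell 5.

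Other genes on the list of calcium buffers and sensors followed no common direction. Hpca, hippocalcin, was detected in all 14 cells with 7583 to 16924 in the positive and 2873 to 40436 in the negative cells. Pcp4, which modulates calmodulin, had 16784 to 42280.1 in the positive cells and was undetected in cell 13. Necab2 was detected in all 5 positive cells, from 213 in cell 12 to 14477 in cell 9, and in 8 negative cells. S100a10, a small protein of the S100 family, was detected in all 5 positive and in 8 negative cells, with 163, 1280.3, 8486, 187 and 16035 in cells 2, 4, 7, 9 and 12 and 2.36 to 48097 in the negative cells. Its difference was -5.55 (SE 2.36, adjusted p = 1.0 by limma), and it was the single gene of the list with an unadjusted p under 0.05. The related genes Necab1, S100a1, S100b, Cabp1 and Kcnip2 were detected in no positive cell and in 1 or 2 negative cells each.

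Pumps, stores and signalling partners of calcium were detected in both sets. Of 37 measured genes 20 to 25 were detected per positive cell and 10 to 21 per negative cell, 26 were tested, 0 passed the adjusted test, and 0 and 1 had an unadjusted p under 0.05 in the higher and lower direction. The mean shares detected were 58.9% and 41.1%, beside 32.3% and 21.3% over all genes. The median depth-adjusted difference was 0.19. The plasma membrane pump Atp2b1 was detected in 4 of 5 positive and 2 of 9 negative cells, with 219.9, 41.1, 3194, 3175 and 797 in the positive cells. Mcu, the pore of the mitochondrial calcium uniporter, had the same count in the positive cells and was detected in 1 negative cell, cell 6, at 1114. Their depth-adjusted differences were 0.18 and 1.12, with SEs of 2.16 and 1.81. Camk2g, a calcium and calmodulin kinase subunit, was detected in all 14 cells, with 2648 to 9408 in the positive and 423 to 11104 in the negative cells.

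Markers of direction-selective RGCs differed from gene to gene. The list was drawn up with results of these cells known, and it holds Fam163a, so its count is no independent evidence of a direction. Of 10 measured members 3 to 6 were detected per positive and 0 to 3 per negative cell. The mean shares were 40% ± 12.2 and 16.7% ± 10 (SD, n = 5 and n = 9), beside 32.3% and 21.3% over all genes. Cartpt, the peptide precursor, was detected in all 5 positive cells with 4712, 1100.3, 4116, 1614 and 31109.7 in cells 2, 4, 7, 9 and 12, and in 5 negative cells with up to 21361. Pcdh8, a protocadherin, was likewise detected in all 5 positive cells with 450.3, 3725, 8563, 2373 and 5681, and in 5 negative cells with up to 5904. Their differences were 0.80 (SE 2.86) and 1.10 (SE 2.61), with an adjusted p of 1.0 for both by limma. Calb1, Fam163a, Cartpt and Pcdh8 were thus detected together in every positive cell.

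Other members of that list occurred in few cells. Cdh6, a cadherin, was detected in cells 9 and 12 with 189 and 957 and in no negative cell. Mmp17 was detected in no positive cell and in cells 5 and 13, and Col25a1 in no positive cell and in cells 5 and 14. Drd4, a dopamine receptor, was detected in cells 2, 12 and 13, and Fstl4 in cell 12 alone.

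**Figure D4:**
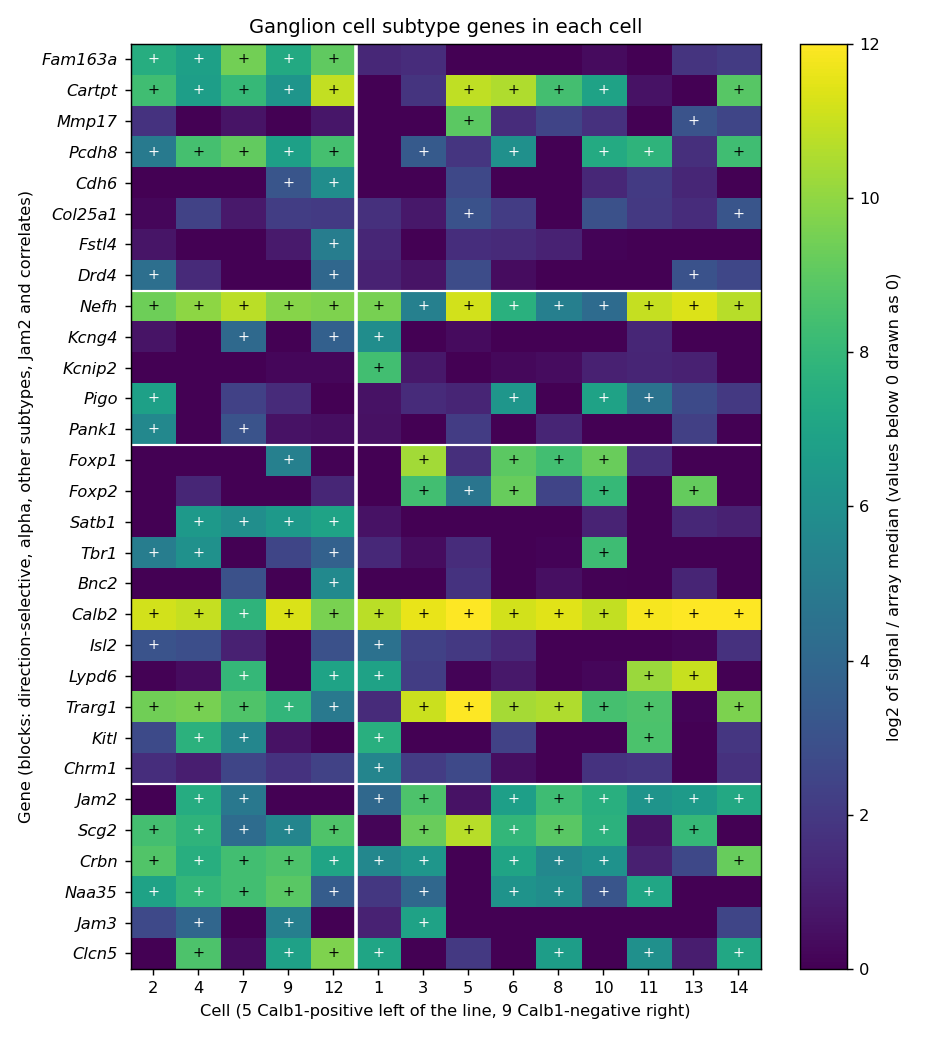
Heat map of log2 of signal over array median for RGC subtype genes detected in at least 1 cell, in the 5 Calb1-positive cells (left of the white line) and the 9 Calb1-negative cells; a plus marks detection. Fam163a, Cartpt and Pcdh8 are detected in all 5 positive cells, and Cartpt and Pcdh8 in negative cells too. Satb1, by the probe set drawn, is detected in 4 positive cells and in no negative cell. Foxp2 and the direction-selective markers Mmp17 and Col25a1 are detected in negative cells only.

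Transcription factors that mark other subtypes divided the cells in part. Satb1, a chromatin organiser found in direction-selective and other RGCs, was detected in cells 4, 7, 9 and 12 and in no negative cell. Its signals were 9.12, 895, 964, 1852 and 1999 in cells 2, 4, 7, 9 and 12 and ran from 0.678 to 83.8 (median 8.40) in the negative cells, so cell 2 fell among the negative cells. Another probe set of Satb1 was detected in 3 positive and 1 negative cells and a further one in 2 positive and 1 negative cells. Yet another was detected in 0 positive and 1 negative cells. Tbr1 was detected in cells 2, 4 and 12 at 511, 690.0 and 218, and in cell 10 at 11387. Foxp2, which marks a family of small RGCs, was detected in no positive cell and in cells 3, 5, 6, 10 and 13, with signals from 1.86 to 9724 (median 207) over the negative cells. None of the 6 probe sets of Foxp2 was detected in a positive cell. Foxp1, its relative, was detected in cell 9 at 795 and in cells 3, 6, 8 and 10 at up to 22288. The depth-adjusted differences were 2.86 for Satb1, 1.40 for Tbr1, -3.63 for Foxp2 and -5.26 for Foxp1, with SEs of 1.70, 2.02, 2.48 and 2.72 and adjusted p of 1.0 by limma.

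Jam2 encodes a junctional adhesion molecule that labels a type of RGC. It was detected in 2 of 5 positive cells, at 1787 in cell 4 and 435 in cell 7, and in 8 of 9 negative cells. Signals ran from 12.2 to 6860.5 (median 1244) in the negative cells. Its depth-adjusted difference was -5.74 (SE 2.51, adjusted p = 1.0 by limma). The 4 other probe sets of Jam2 were detected in no positive and in at most 1 negative cell each. The homophilic adhesion gene Sdk2 was detected in cells 4, 7 and 12 and in no negative cell, with 36.1, 154, 521, 19.8 and 203 in the positive cells. Among alpha RGC markers, the neurofilament gene Nefh was detected in all 14 cells, with 9862 to 26638 in the positive and 513 to 41411 in the negative cells.

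General RGC markers were present in every positive cell. Of 15 measured markers 13 to 14 were detected per positive and 9 to 13 per negative cell, or 88% ± 2.98 against 72.6% ± 11.3 (SD, n = 5 and n = 9), while over all genes the shares were 32.3% ± 3.91 and 21.3% ± 5.24. Sncg, gamma-synuclein, had 33947, 17115, 44920.3, 45542 and 30064 in cells 2, 4, 7, 9 and 12 and ran from 36451 to 125623 (median 54880.1) in the negative cells. Pou4f1, the transcription factor Brn3a, had 1318 to 8622 in the positive cells and was undetected in negative cell 5. Ebf3, a transcription factor of the Ebf family, was the 1 of 13 tested RGC markers whose sets did not overlap. Over all genes tested, 0.392% had such sets with the positive cells higher and 0.0436% with them lower. Its signals were 4668, 6899.7, 11037, 8177 and 3284 in the positive cells, and the negative cells had it detected in cell 6 at 3085 and cell 11 at 1124 only, so the gap between cell 12 and cell 6 was small. Its depth-adjusted difference was 2.74 (SE 2.31, adjusted p = 1.0 by limma), and before adjustment 5.79. Its relative Ebf1 was detected in all 5 positive and in 4 negative cells.

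Markers of the cell types in which calbindin-D28k is abundant were nearly absent from the positive cells. Of 9 measured horizontal cell markers 1 was detected in each positive cell and 1 to 2 in each negative cell. That 1 was Septin4 throughout, which had 11126 to 27186 in the positive cells and was detected in all 14 cells. The horizontal cell genes Lhx1, Onecut1, Prox1, Gja10 and Tfap2b were detected in no cell, and Onecut2 in negative cell 13 alone. The summed signal of the list was 11226 to 27365 in the positive and 565 to 31680.3 in the negative cells. Of 14 amacrine markers 1 to 2 were detected per positive and 0 to 3 per negative cell. These were Pax6, which RGCs also express, with 3827 to 11217 in the positive cells, and the glycine transporter gene Slc6a9 in cells 2 and 4 at 4203 and 415. Gad1, Chat and Th were detected in no cell, and Gad2 and Slc32a1 in no positive cell. The summed amacrine signal was 4046 to 15586 against 195 to 25048.

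**Figure D5:**
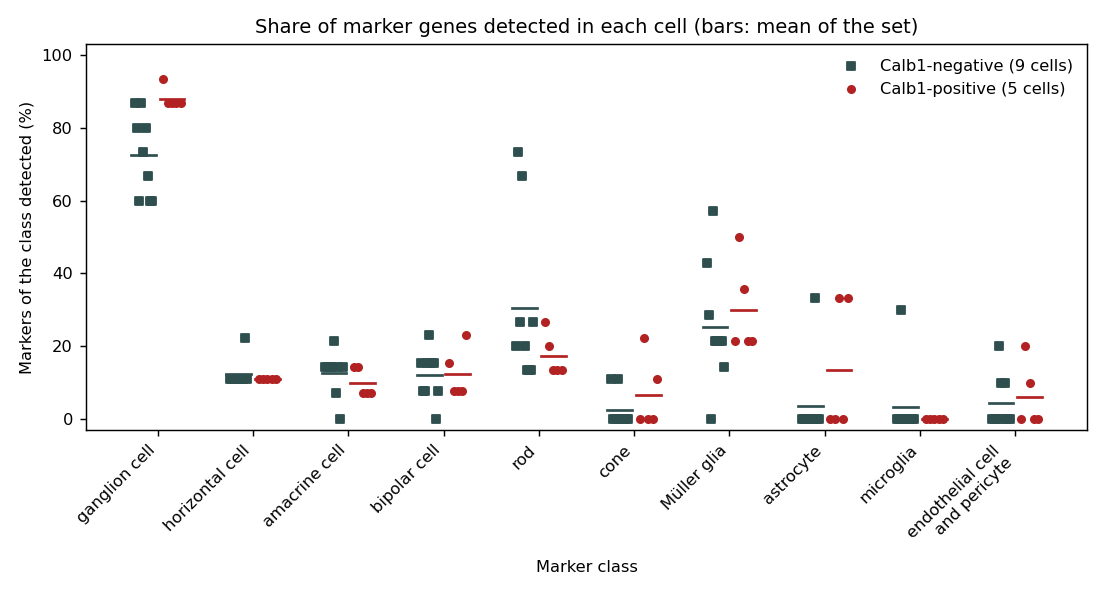
Percent of the measured markers of each retinal cell class that were detected, 1 point per cell, with the mean of each set as a bar. RGC markers are at 86.7 to 93.3% in the Calb1-positive cells, horizontal cell markers at 11.1% in each of them, and the 2 negative cells with most rod markers are cells 3 and 6.

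Müller glia markers were found in both sets. Of 14 markers 3 to 7 were detected per positive and 0 to 8 per negative cell, with summed signals of 11155 to 28393 and 202 to 84983. Glul, glutamine synthetase, was detected in all 5 positive cells with 1057, 4885, 417, 753 and 7177 in cells 2, 4, 7, 9 and 12, and in 3 of 9 negative cells. Of the 14 markers, Aqp4, Apoe, Sox2 and Sox9 were detected in no cell. All others, among them Rlbp1, Slc1a3, Clu and Vim, were detected in at least 1 cell. Of 10 microglial markers, none was detected in a positive cell, and among the negative cells only cell 5 had any (3). The part of these transcripts in the differences between the sets was not tested.

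Sodium channels carry the spikes of RGCs, and none of their genes passed the test. Of 11 measured sodium channel genes 6 to 7 were detected per positive and 0 to 5 per negative cell, or 60% ± 4.98 against 29.3% ± 14.2 (SD, n = 5 and n = 9), with no overlap between the sets. Over all genes the shares were 32.3% and 21.3%, and 31 of the 39 lists had a higher mean share detected in the positive cells. The median depth-adjusted difference of the 7 tested was -1.08, and 2.02 before adjustment. Scn1a, the alpha subunit Nav1.1, was detected in cells 4, 7, 9 and 12 with 1974, 2278, 6041 and 2593, and in negative cell 8 with 9237. Of its 2 other probe sets, 1 was detected in 4 positive and 0 negative cells and the other in 5 positive and 4 negative cells. Scn3a was detected in all 5 positive cells at 220.5 to 1262 and in 2 negative cells, 6 and 8, at the higher signals of 8370.5 and 12618. Scn7a was detected in cells 2, 4 and 7 and in cell 14.

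Among 14 tested calcium channel genes, 1, Cacng3, had sets that did not overlap. Over all 6882 genes tested, 27 (0.392%) had such sets with the positive cells higher. It encodes an auxiliary subunit of AMPA receptors of the gamma family. Its signals were 2951, 1409.9, 7272, 1063 and 1228 in cells 2, 4, 7, 9 and 12 and ran from 10.7 to 227 (median 33.0) in the negative cells, with detection in cell 6 alone. The difference was 4.13 (SE 1.91, adjusted p = 1.0 by limma). The 14 tested members of that list had a median of -1.56. Of 18 acetylcholine receptor genes 4 to 5 were detected per positive and 0 to 4 per negative cell. Their mean shares were 23.3% and 11.1%, beside 32.3% and 21.3% over all genes. Chrnb3, the nicotinic beta3 subunit, had 3727, 3878, 495, 4569 and 226 in the positive cells and was detected in 1 negative cell, cell 6, at 919.9, which lies between the positive cells. Its partner Chrna6 was detected in all 5 positive and 8 of 9 negative cells. Of 22 glutamate receptor genes 6 to 9 were detected per positive and 4 to 11 per negative cell, with a median difference of -1.19 over the 10 tested.

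Guidance and adhesion genes, which differ between RGC subtypes, gave single examples. Of 91 measured genes 25 to 36 were detected per positive and 11 to 27 per negative cell. The mean shares of 32.1% and 20.6% were close to the 32.3% and 21.3% over all genes. Of 36 tested, 1 and 1 had an unadjusted p under 0.05 in the higher and lower direction, beside 1.39% and 3.21% of all genes tested. Cntn4, a contactin of accessory optic projections, was detected in cells 2, 4, 9 and 12 with 1995, 1871, 3852 and 275, and in negative cell 14 with 7198. Its difference was 5.19 (SE 2.13, adjusted p = 1.0 by limma). Sema4g, a semaphorin, was detected in 1 positive and 5 negative cells, with a difference of -6.04 (SE 2.80). Tenm3, a teneurin, was detected in 4 positive and 8 negative cells, with 2.59 to 9586 and 31.8 to 42945. Of 55 cadherins and protocadherins 8 to 12 were detected per positive and 4 to 8 per negative cell. Their mean shares were 17.8% and 10.5%, again beside 32.3% and 21.3% over all genes. Pcdh10 was detected in cells 7 and 12, at 402 and 437, and in 6 negative cells at up to 18048.

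Genes of energy supply, translation and neuronal structure are expressed by all RGCs. Of 70 tested subunits of oxidative phosphorylation 0 and 3 had an unadjusted p under 0.05 in the higher and lower direction, with a median difference of -0.96 and 0.21 before adjustment. Of 39 tested cytosolic ribosomal proteins 0 and 2 did, with -0.89 and -0.05. Over all genes tested 1.39% and 3.21% had such a p in the higher and lower direction. The 13 glycolytic genes were all detected in every positive cell, and their median was 0.38. The 23 tested synaptic vesicle genes had a median of 0.50, and the 26 tested genes of the axonal cytoskeleton one of 0.30. None of these genes passed an adjusted p of 0.05. Every array was scaled to the same trimmed mean. Beside that, signals were summed over the calcium buffers and sensors other than Calb1. The sums were 111003 to 188319 in the positive and 190723 to 362184 in the negative cells, without overlap. Cell 9 had the sum of 188319 and a further 24366 for Calb1, so the sums overlap once Calb1 is counted. The genes of other RGC subtypes had 15951 to 62175 against 67472 to 153023, again without overlap. With Calb1 left out, 2 of the 39 lists thus had sums that did not overlap.

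The 5 Calb1-positive cells differed among themselves. Pairs of positive cells had a Pearson r of 0.422 to 0.510 (median 0.441, 10 pairs) on the log2(signal + 32) scale over the 6882 genes tested. Pairs of a positive and a negative cell had 0.272 to 0.524 (median 0.383, 45 pairs) and pairs of negative cells 0.254 to 0.487 (median 0.332, 36 pairs). Cells 7 and 9 were each other's most alike, at 0.510, and so were cells 2 and 4, at 0.462. Cell 12 was most alike to cell 6, a negative cell, at 0.524. These correlations are across genes, share the depth of detection between deep cells, and are a description.

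Among immediate early genes, Dusp1 and Fos varied between the positive cells. Dusp1, a phosphatase induced by activity and stress, had 10579, 34.1, 16734, 12695 and 2.14 in cells 2, 4, 7, 9 and 12. It was thus high in cells 2, 7 and 9 and undetected in cells 4 and 12, and among the negative cells it was detected in cell 8 alone at 15485. Fos was detected in cells 7, 8 and 9 at 11864, 10644 and 711. Over 27 immediate early and stress genes 5, 6, 10, 6 and 6 were detected in cells 2, 4, 7, 9 and 12 and 4 to 7 per negative cell, so the list did not follow Dusp1. Sex-linked transcripts also occurred in both sets. Xist was detected in positive cells 7 and 9 and in negative cells 8 and 10. Eif2s3y, a gene of the Y chromosome, was detected in positive cells 2, 4 and 12 and in negative cells 11 and 14. Each positive cell had 1 of the pair and neither transcript followed Calb1.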

How the data were processed

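The authors computed a signal intensity per probe set with MAS5, of a version not stated, from 14 arrays of single adult mouse RGCs, amplified from an oligo-dT primer by 35 cycles of PCR, which favours 3′ ends and leaves low transcripts to chance. The deposited intensities are linear, and each array has a 2% trimmed mean of 500.0. The study used more than 1 array facility, and the sources used here assign none of these arrays to either. An array has no read depth, so precision is set by how many arrays there are.

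Of 45101 probe sets, 64 controls were left out. Of the others 34945 had 1 gene symbol, 932 several and 9160 none here. Symbols were updated by gene number (34741 matched, RefSeq, GRCm38.p6). Each gene was represented by the probe set that had the highest mean log2 signal (18193 genes, 9010 of them with several probe sets). Genes detected in at least 4 of 14 cells, without Calb1, were tested on log2(signal + 32), which understates differences of low genes, with limma 3.58.1 (R 4.3.3; lmFit, then eBayes with a trend) on Calb1 set and number of detected probe sets, and p-values were adjusted by Benjamini-Hochberg over all 6882. The difference in detected probe sets was tested by exact permutation.

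Members, gene lists and tests were chosen with earlier results of these data known. Named genes were Calb1 and Fam163a, the 10 genes with the largest difference in each direction among those whose sets do not overlap, the 10 with the smallest p in each direction, up to 15 detected in all of one set and none of the other, and members of 39 gene lists. A gene outside this rule is said to be chosen after its values were seen. Alternatives were 28 settings, 14 of which left out 1 cell.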

Additional observations from a re-analysis of the deposited data

How the results depend on the processing

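No gene passed the adjusted test in either direction under 27 of 28 alternatives. The exception compared the positive cells with the negative cells in their depth range, which leaves cell 6 alone: 7 genes were higher (Urod, Klc1, Atg3, Dap3, Immt, Cpsf3 and Snx17), each with a lower signal in cell 6 than in any positive cell and each detected in 4 to 8 negative cells. In that setting 1170 genes had sets that did not overlap with the positive cells higher and 865 lower, 299 were detected in all positive cells and not in cell 6, 281 had the reverse, and the difference in detected probe sets was 962 (exact permutation p = 0.833, where 6 cells cannot give less than 0.167). Leaving out 1 cell at a time, the number of non-overlapping genes ran from 29 to 67 higher and from 3 to 12 lower, the number detected in all positive and no negative cell from 13 to 29 (leaving out a cell cannot remove a gene from that list), and the difference in detected probe sets from 3621 to 4362. Without cells 5, 11, 13 and 14, which hold few detected probe sets, the non-overlapping genes were 75 higher and 11 lower, with 31 detected in all positive and no negative cell and 1 in the reverse. Without cells 3 and 6 they were 69 and 15, with 39 detected. With the other settings the non-overlapping higher genes were 11 (detected in at least 7 cells), 15 (quantile normalization), 41 (array medians), 73 (all probe sets) and 14 (detection at a signal of 1000), and the lower ones 15 without a filter and 0 with quantile normalization, array medians or the mean of a gene's probe sets. The genes detected in all positive and no negative cell were 4 of the 13 with quantile normalization, 30 probe sets with all probe sets, 8 at a signal of 1000 (3 of the 13) and 8 at 4 times the median (6 of the 13). Quantile normalization gives each array the same distribution, so it has no value for the number of detected probe sets.

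Of 937 alternative values of the 38 genes named with a fitted difference, 927 kept their direction. Those that turned were Csdc2 without the depth covariate (-0.28), Nrp2 without cell 6 (-0.10, from there up to 2.29 with any other 1 cell left out) and without cells 3 and 6 (-0.12), Gnb1 with quantile normalization (0.039), array medians (0.47), probe set means (0.82), and, leaving out 1 cell at a time, up to 0.069 (from -0.36), Rbfox1 with array medians (0.22) and Sod1 with probe set means (0.29). Without the depth covariate 685 genes had an unadjusted p under 0.05 with a higher and 71 with a lower mean in the positive cells, beside 96 and 221, and the lowest adjusted p was 0.0677. No paired analysis was possible because the labels put all cells in 1 group. The number of arrays and the near coincidence of Calb1 with the depth of detection limit the fitted differences.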
